A study of Caenorhabditis elegans with 6 samples.

Results

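Replication forks that stall are kept from collapsing, and restarted or repaired, by a small set of conserved proteins. Helicases unwind DNA structures that block the fork, nucleases cut branched DNA at stalled forks and at joined chromosomes, and homologous recombination repairs broken ends by copying an intact sister. In *C. elegans*, these genes have been studied mostly in the germline and the early embryo, where cells divide fast. The transcripts of 10 such genes are described here, all 10 of them found by symbol among the 19933 genes of the deposited RNA-seq table. They comprise 3 helicases (*dog-1*, *him-6* and *rtel-1*), 3 nucleases (*mus-81*, *xpf-1* and *slx-1*), the Fanconi anemia gene *fcd-2*, and 3 genes of homologous recombination (*brc-1*, *brd-1* and *rad-51*). The rule that chose them uses their function and no measured value, although earlier results of these data were known when they were chosen.

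The study compared embryos laid by wild-type (N2) hermaphrodites that ate bacteria producing RNA against *pri-1*, a subunit gene of the DNA primase that starts new DNA strands, with embryos of N2 hermaphrodites on bacteria with the empty vector (EV). The mothers were fed from the first larval stage for 96 h at 20°C. Each group had 3 libraries. Embryos were scraped from plates after adults and hatched worms had been washed off, no step that selects embryos of one age is given, and how many mothers stand behind a library is not given, so p-values measure the spread between these libraries only. The values are CPM, the reads of a gene scaled so that all genes of a library add up to 1000000.

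The libraries held 122751253 to 162069371 reads, and the 10 genes had between 254 and 9640 reads in a library, so counting error was small beside the spread between libraries. In the limma test on log2(CPM + 0.5), 2564 of 14801 tested genes passed an adjusted p of 0.05 as higher in *pri-1* RNAi embryos and 1471 as lower. The higher genes were 63.5% of these calls, and 49.2% with quantile normalization. Median centring moved the median log2 fold change of all genes to 0.20, against -0.0077 with the CPM as deposited. *pri-1* itself had 28.6, 28.7 and 24.3 CPM in *pri-1* RNAi embryos, against 41.2, 47.2 and 26.9 CPM in EV embryos, a log2 fold change of -0.46 (standard error 0.29) that did not pass the test (adjusted p = 0.285 from limma). No gene of the germline, muscle, pharynx or epidermis marker lists was at 0 in a library. In the list of germline and early maternal markers, 3 of 14 genes were higher and 1 lower, with summed levels of 446 to 575 CPM in *pri-1* RNAi and 196 to 472 CPM in EV libraries. Of 8 muscle markers, 1 was lower (2650 to 5583 CPM in *pri-1* RNAi, 4155 to 8834 CPM in EV). Of 5 pharynx markers, 2 were lower (293 to 763 CPM and 727 to 1297 CPM), and of 5 epidermis markers, 2 were lower (320 to 382 CPM and 639 to 755 CPM). Of 7 intestine markers, 1 was higher and none lower, and of 7 neuron markers, 1 was higher and 2 lower. Of 5 tested cuticle and collagen markers, 1 was higher and 1 lower, and of 3 tested sperm markers, 1 was higher. Over all tested genes, 17.3% were higher and 9.94% lower, so several of these counts were close to the share in the whole table. In these bulk samples, fewer cells of a type and less RNA per cell cannot be told apart. The 6 yolk protein genes summed to 16.7 to 61.3 CPM in *pri-1* RNAi libraries and to 782, 13.03 and 103 CPM in EV libraries 1, 2 and 3. The paper states that eggs laid under *pri-1* RNAi do not hatch and stop developing early, before morphogenesis. Embryo stage and treatment therefore go together in this design and cannot be told apart. The part of cell makeup or embryo age in the values below was not tested.

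Of the 10 genes, *brd-1* and *rad-51* were higher in *pri-1* RNAi embryos and none was lower. The 2 calls stand beside a background of 17.3% of tested genes that were higher and 9.94% that were lower, so 2 of 10 was close to the share in the whole table. *brd-1* was 2.33-fold and *rad-51* 1.88-fold higher by their mean CPM. The same 2 genes were the ones whose groups did not overlap, beside 25.4% of all tested genes that did not overlap as higher and 19.8% as lower. The other 8 genes did not pass the test. At an unadjusted p under 0.05 from limma, 2 of the 10 were again higher and 0 lower, beside 22.8% of all tested genes higher and 39.5% in either direction, and edgeR and DESeq2 on reads recovered from the CPM also called 0 of the 10 lower. The log2 fold changes of the 10 genes had a median of 0.24, with 6 above and 4 below 0, against a median of -0.0077 over all tested genes.

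**Figure D1:**
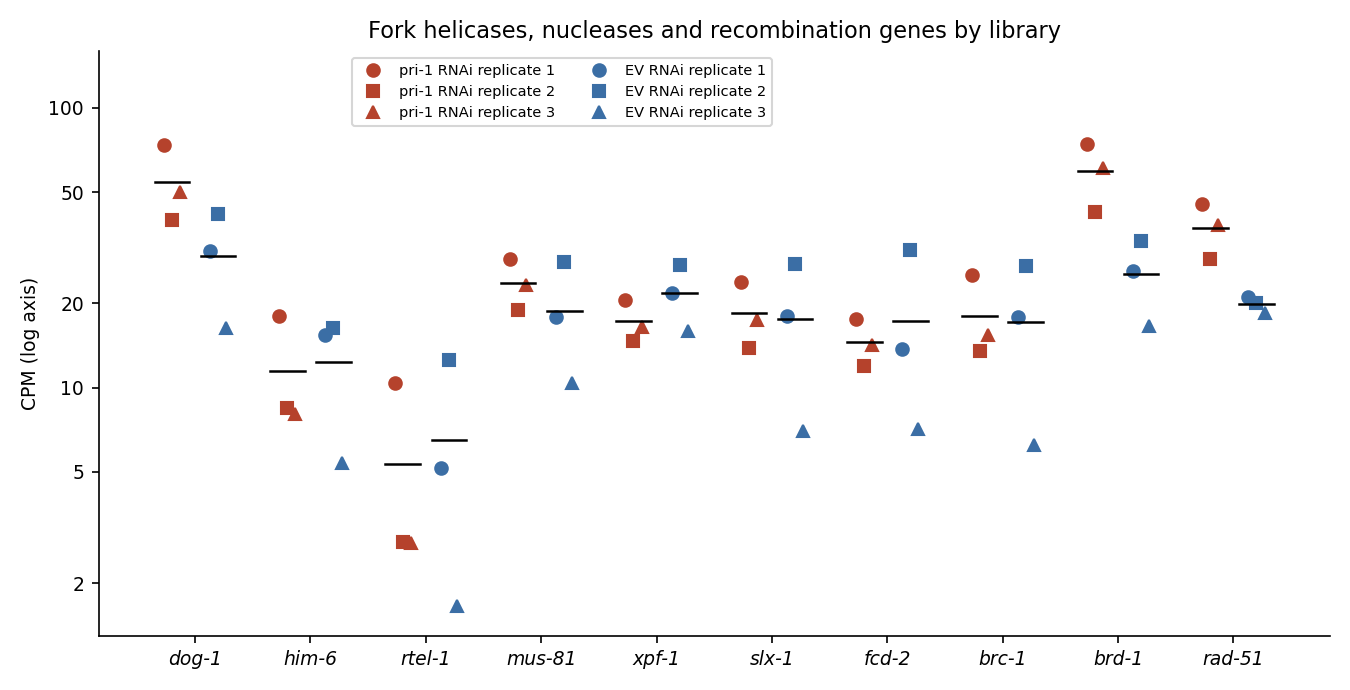
CPM of the 10 genes on a log axis in each library, with *pri-1* RNAi libraries (red) left of EV libraries (blue), symbols for the replicate number and bars for the mean of 3 libraries. The groups part for *brd-1* and *rad-51* only, and EV replicate 3 has the lowest EV value of every gene.

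*brd-1* encodes the partner of BRC-1 in the worm counterpart of the BRCA1-BARD1 ubiquitin ligase (WBGene00000265, chromosome III, 6885207 to 6889504 of genome build WBcel235, minus strand). It had 74.6, 42.4 and 60.9 CPM in *pri-1* RNAi replicates 1, 2 and 3, against 26.1, 33.6 and 16.7 CPM in EV replicates 1, 2 and 3. The lowest *pri-1* RNAi value exceeded the highest EV value. Mean levels were 59.3 ± 16.1 CPM in *pri-1* RNAi and 25.5 ± 8.47 CPM in EV embryos (SD, n = 3 each). On the log2 scale the difference was 1.22 with a 95% interval of 0.42 to 2.02 (standard error 0.34; limma, adjusted p = 0.0344), and the exact two-sided permutation test gave p = 0.1, the smallest that 3 libraries against 3 allow. Fits that each lacked 1 library gave log2 fold changes of 0.95 to 1.45, and the call was lost in 4 of these 6 fits, namely without EV replicate 1 and without each *pri-1* RNAi replicate. *brd-1* was also higher with trimmed-mean scaling, median centring, quantile normalization, edgeR and DESeq2.

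*rad-51*, the gene of the recombinase that coats single-stranded DNA and pairs it with the matching sequence of a sister chromatid, had 45.2, 28.7 and 38.04 CPM in *pri-1* RNAi embryos, against 21.1, 20.0 and 18.4 CPM in EV embryos (WBGene00004297, chromosome IV, 10281634 to 10284244 on the minus strand). The EV libraries were the most even of any of the 10 genes, with a highest value 1.14 times the lowest, and all lay below those of *pri-1* RNAi. Mean levels were 37.3 ± 8.26 CPM in *pri-1* RNAi and 19.9 ± 1.34 CPM in EV embryos (SD, n = 3 each). The log2 difference was 0.87 with a 95% interval of 0.24 to 1.502 (standard error 0.27; limma, adjusted p = 0.0483; exact two-sided permutation test, p = 0.1). This call was close to the threshold. It was kept with median centring (adjusted p = 0.0324 from limma) and with quantile normalization (adjusted p = 0.0251 from limma). It was lost in all 6 fits that each left out 1 library (log2 fold changes of 0.72 to 1.05), with trimmed-mean scaling (adjusted p = 0.0510 from limma), with edgeR (adjusted p = 0.0883) and with DESeq2 (adjusted p = 0.0692), although the direction stayed the same in each.

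*brc-1*, the BRCA1 counterpart (WBGene00000264, chromosome III, 3853102 to 3862968 on the minus strand), did not pass the test. It had 25.3, 13.5 and 15.4 CPM in *pri-1* RNAi libraries, against 17.9, 27.3 and 6.24 CPM in EV libraries. EV libraries 2 and 3 were the extremes of all 6, with a ratio of 4.38 between them. The log2 fold change of 0.25 (standard error 0.55, 95% interval -1.02 to 1.52, adjusted p = 0.778 from limma) has an interval that includes the value of *brd-1*, and it was -0.34 when EV replicate 3 was left out and -0.017 when *pri-1* RNAi replicate 1 was. The CPM of *brc-1* came out as whole reads in 1 of 6 libraries, while those of the other 9 genes did so in all 6.

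*fcd-2* encodes the FANCD2 counterpart, a clamp on DNA that marks interstrand cross-links and stalled forks for repair. Its CPM were 17.7, 11.96 and 14.2 in *pri-1* RNAi embryos, against 13.7, 31.1 and 7.10 in EV embryos. The *pri-1* RNAi values all lay between the EV values. limma gave a log2 fold change of -0.014 with a 95% interval of -1.22 to 1.19 (standard error 0.52, adjusted p = 0.988).

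Among the helicases, *dog-1* had the highest CPM and the largest difference. *dog-1* encodes the FANCJ-type helicase that keeps G-rich tracts from being deleted during replication (WBGene00001049, chromosome I, 15017283 to 15022990 on the minus strand). It had 73.5, 39.7 and 50.1 CPM in *pri-1* RNAi embryos, against 30.8, 41.7 and 16.4 CPM in EV embryos. The groups overlapped only in that EV replicate 2 was above *pri-1* RNAi replicate 2. The log2 fold change was 0.92 (standard error 0.40, 95% interval -0.0076 to 1.85) and did not pass the test (adjusted p = 0.129 from limma; exact two-sided permutation test, p = 0.2). *dog-1* passed as higher with trimmed-mean scaling (0.84, adjusted p = 0.0343 from limma), with median centring (1.13), with quantile normalization (1.08), with DESeq2 (0.79) and without EV replicate 2 (1.21), but not with edgeR (0.75, adjusted p = 0.0507). Leaving out EV replicate 2 gave the only pass among the 6 fits that each lacked 1 library, which ran from 0.55 (EV replicate 3 left out, adjusted p = 0.206 from limma) to 1.21. With trimmed-mean scaling its groups no longer overlapped, with 63.8, 42.5 and 49.7 CPM in *pri-1* RNAi, against 29.5, 33.0 and 23.5 CPM in EV libraries.

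The other 2 helicases had wide intervals around 0. *him-6* encodes the worm Bloom syndrome helicase, which undoes joined recombination intermediates. It had 18.1, 8.43 and 8.07 CPM in *pri-1* RNAi embryos, against 15.4, 16.4 and 5.40 CPM in EV embryos. The highest library had 2.24 times the CPM of the lowest in *pri-1* RNAi and 3.03 times in EV, and the log2 difference was -0.054 with a 95% interval of -1.27 to 1.17 (standard error 0.52; limma, adjusted p = 0.953). *rtel-1* encodes a helicase that takes apart early recombination intermediates and so limits crossovers. It was the scarcest of the 10 transcripts and the most uneven, with 10.4, 2.81 and 2.79 CPM in *pri-1* RNAi embryos, against 5.18, 12.6 and 1.66 CPM in EV embryos. Its log2 fold change of -0.15 had a standard error of 0.75 (95% interval -1.88 to 1.59, adjusted p = 0.907 from limma).

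**Figure D2:**
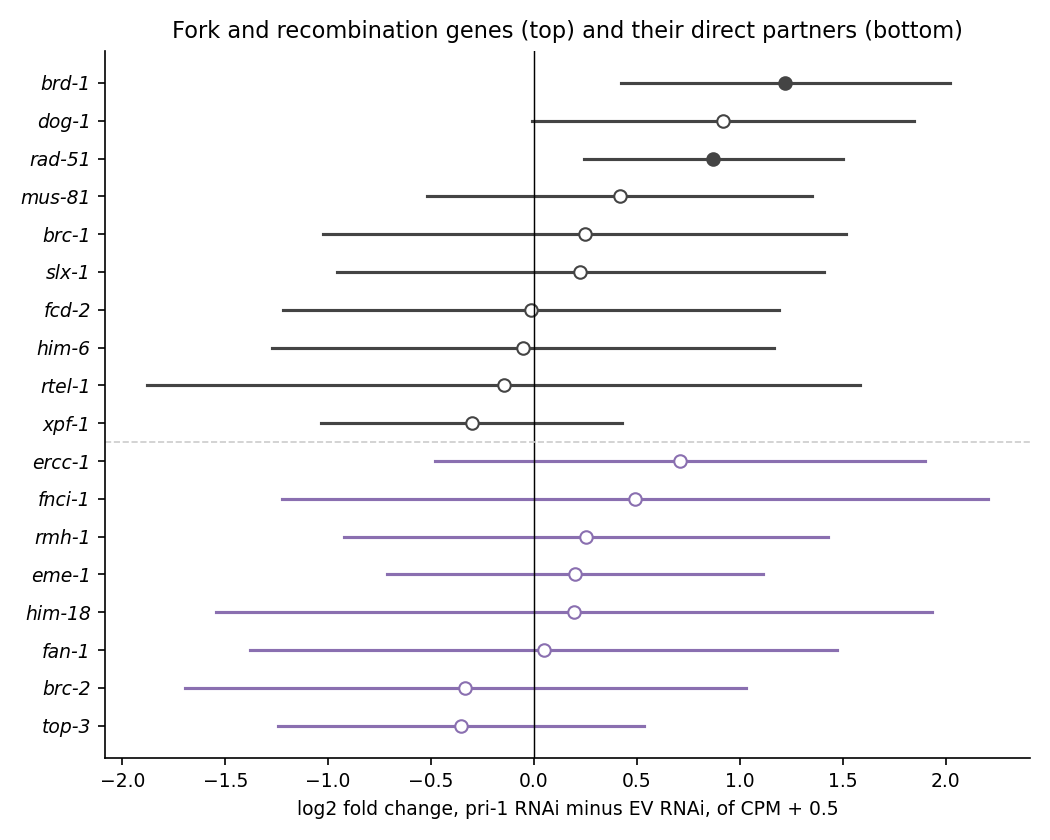
Log2 fold change of CPM + 0.5, *pri-1* RNAi minus EV, for the 10 genes and for 8 genes of direct partner proteins, with lines for limma's 95% interval and filled points for an adjusted p under 0.05. Only *brd-1* (1.22) and *rad-51* (0.87) are filled, and the widest interval among the 10 genes is that of *rtel-1*.

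Of the nucleases, none passed the test. *mus-81*, whose product cuts stalled forks and joined chromosomes together with EME-1, had 28.9, 18.9 and 23.3 CPM in *pri-1* RNAi embryos, against 17.9, 28.0 and 10.4 CPM in EV embryos. The *pri-1* RNAi libraries lay inside or just above the EV range (log2 fold change 0.42, 95% interval -0.52 to 1.35; limma, adjusted p = 0.487). *slx-1*, the catalytic part of the nuclease held by the scaffold HIM-18, had 24.0, 13.9 and 17.4 CPM in *pri-1* RNAi embryos, against 18.1, 27.8 and 7.02 CPM in EV embryos (log2 fold change 0.23, 95% interval -0.96 to 1.41; limma, adjusted p = 0.783). *xpf-1*, which works with ERCC-1 in nucleotide excision repair and in the cutting of recombination intermediates (WBGene00008140, chromosome II, 11696171 to 11705371 on the plus strand), was the gene with the lowest log2 fold change of the 10. Its CPM were 20.6, 14.7 and 16.5 in *pri-1* RNAi embryos, against 21.8, 27.4 and 16.0 in EV embryos, and the log2 fold change of -0.30 did not pass the test (standard error 0.31, 95% interval -1.03 to 0.43, adjusted p = 0.522 from limma). The groups overlapped through EV replicate 3. With trimmed-mean scaling they did not, with 17.8, 15.8 and 16.4 CPM in *pri-1* RNAi, against 20.9, 21.7 and 22.9 CPM in EV libraries, and the difference did not pass the test there either (log2 fold change -0.38, adjusted p = 0.237 from limma). Exons of *mus-81* share 42 bases with *C43E11.9* on the other strand, those of *slx-1* share 6 bases with *npp-6*, those of *fcd-2* share 14 bases with *Y41E3.8* on the other strand, and *inos-1* overlaps *xpf-1* on the other strand without shared exon bases.

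The 10 genes ranked the libraries much alike. *pri-1* RNAi replicate 1 was the highest of its group and EV replicate 3 the lowest of its group for all 10 genes, and EV replicate 2 was the highest EV library for 9 of them, *rad-51* being the exception. The same orders were common over all tested genes. *pri-1* RNAi replicate 1 was the highest of its group in 57.4% of them, EV replicate 3 the lowest in 70.4% and EV replicate 2 the highest in 60.8%. The 10 genes together summed to 338, 195 and 247 CPM in *pri-1* RNAi replicates 1, 2 and 3, against 188, 266 and 105 CPM in EV replicates 1, 2 and 3. Without EV replicate 3, the median log2 fold change was -0.32 over the 10 genes and -0.22 over all tested genes, and *brd-1* alone passed the test. Without both EV replicate 3 and *pri-1* RNAi replicate 1, a choice made after the data were seen, the median was -0.56 over the 10 genes and -0.38 over all tested genes, and none of the 10 passed. *brd-1* and *rad-51* still had log2 fold changes of 0.77 and 0.67 in that comparison (adjusted p = 0.0893 and 0.117 from limma). Trimmed-mean scaling factors were in the same order within each group, at 1.15, 0.935 and 1.01 for *pri-1* RNAi and 1.05, 1.26 and 0.697 for EV replicates 1, 2 and 3.

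**Figure D3:**
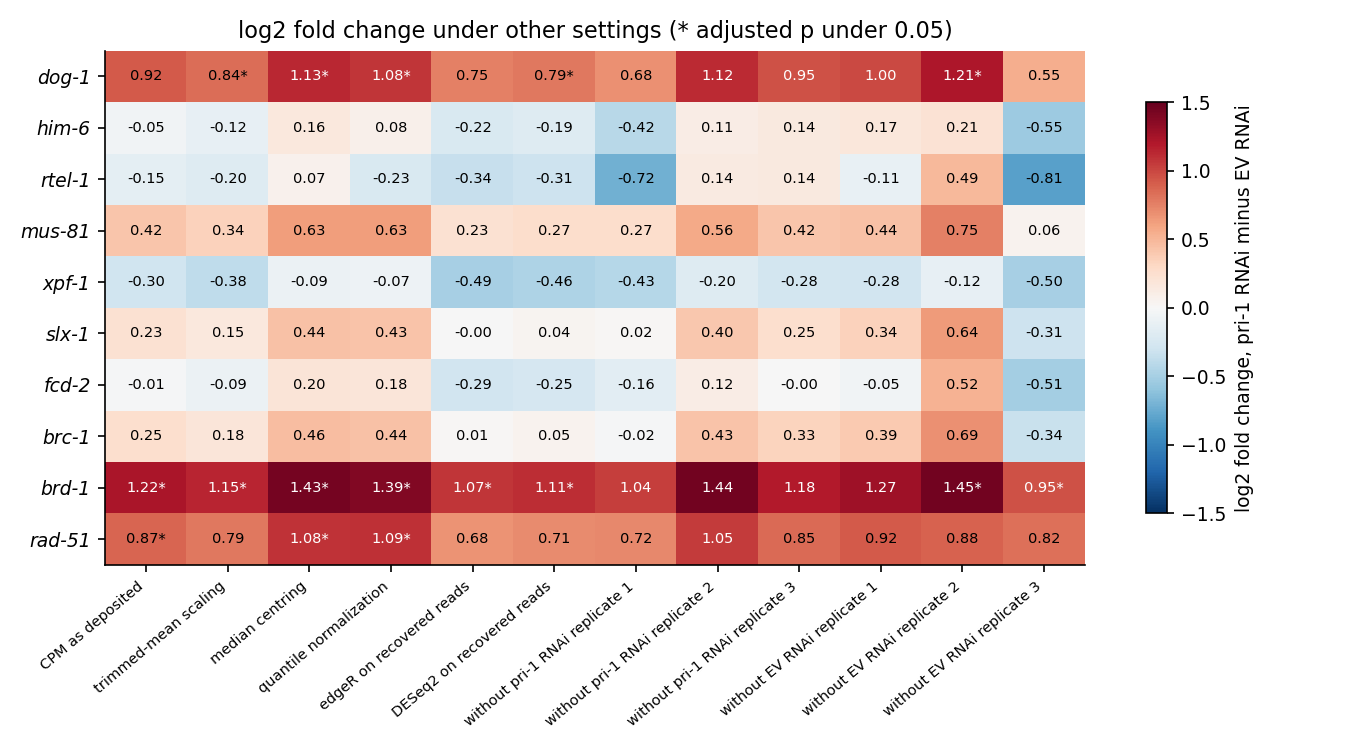
Log2 fold change (*pri-1* RNAi minus EV) of the 10 genes under the CPM as deposited, other scalings, count tests and with each library left out, in colour and in digits, with an asterisk for an adjusted p under 0.05. *brd-1*, *rad-51*, *dog-1* and *mus-81* stay above 0 and *xpf-1* below 0 in every column, while *him-6*, *rtel-1*, *fcd-2*, *slx-1* and *brc-1* take both signs.

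Levels of different genes were compared per kilobase (kb) of the longest annotated transcript. In EV embryos the order of mean levels was *rad-51* (12.97 ± 0.876 CPM per kb), *slx-1* (12.3 ± 7.27), *brd-1* (11.6 ± 3.87), *mus-81* (9.52 ± 4.49), *dog-1* (9.40 ± 4.03), *brc-1* (8.68 ± 5.35), *xpf-1* (7.49 ± 1.97), *him-6* (3.96 ± 1.94), *fcd-2* (3.91 ± 2.80) and *rtel-1* (2.07 ± 1.78; SD, n = 3 each). Neighbours in this order differed by less than the larger of their SDs, except *xpf-1* and *him-6*. These SDs also hold differences that run through a whole library. Within each EV library, *brd-1* was above *mus-81*, *xpf-1* above *him-6* and *fcd-2* above *rtel-1*. The other neighbours did not keep their order in all EV libraries. In *pri-1* RNAi embryos the levels per kb of *brd-1* (27.1 ± 7.38) and *rad-51* (24.4 ± 5.40) were the highest, followed by *dog-1* (17.3 ± 5.49), and the lowest were again *him-6* (3.68 ± 1.81), *fcd-2* (3.30 ± 0.649) and *rtel-1* (1.70 ± 1.396; SD, n = 3 each).

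Ratios of partner genes within a library hardly depend on a library scaling factor, and 7 such ratios were tested. The log2 ratio of *brc-1* to *brd-1* CPM was -1.54, -1.62 and -1.95 in *pri-1* RNAi replicates 1, 2 and 3, against -0.54, -0.29 and -1.35 in EV replicates 1, 2 and 3. All *pri-1* RNAi libraries were below all EV libraries, by 0.98 on average, with EV replicate 3 the closest. This difference is that between the log2 fold changes of *brc-1* (0.25) and *brd-1* (1.22), so it does not stand apart from the *brd-1* call. The log2 ratio of *xpf-1* to *ercc-1* was likewise lower in each *pri-1* RNAi library, with 0.52, 0.89 and 0.62 against 1.36, 1.39 and 2.32 in EV libraries, a difference of -1.01. For both ratios the exact two-sided permutation test gave p = 0.1, the smallest that this test can give for 3 libraries against 3, and 0.35 after adjustment over the 7 ratios, so neither difference passed. The groups overlapped for the ratio of *rad-51* to *brc-2*, which acts in homologous recombination (a mean log2 ratio of 2.004 ± 0.32 in *pri-1* RNAi and 0.80 ± 1.03 in EV; SD, n = 3 each; exact permutation p = 0.2). They also overlapped for *mus-81* to *eme-1* (difference 0.22), *slx-1* to *him-18* (0.030), *him-6* to *rmh-1* (-0.31) and *fcd-2* to *fnci-1* (-0.50), with exact permutation p-values of 0.2, 1, 0.3 and 0.4.

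**Figure D4:**
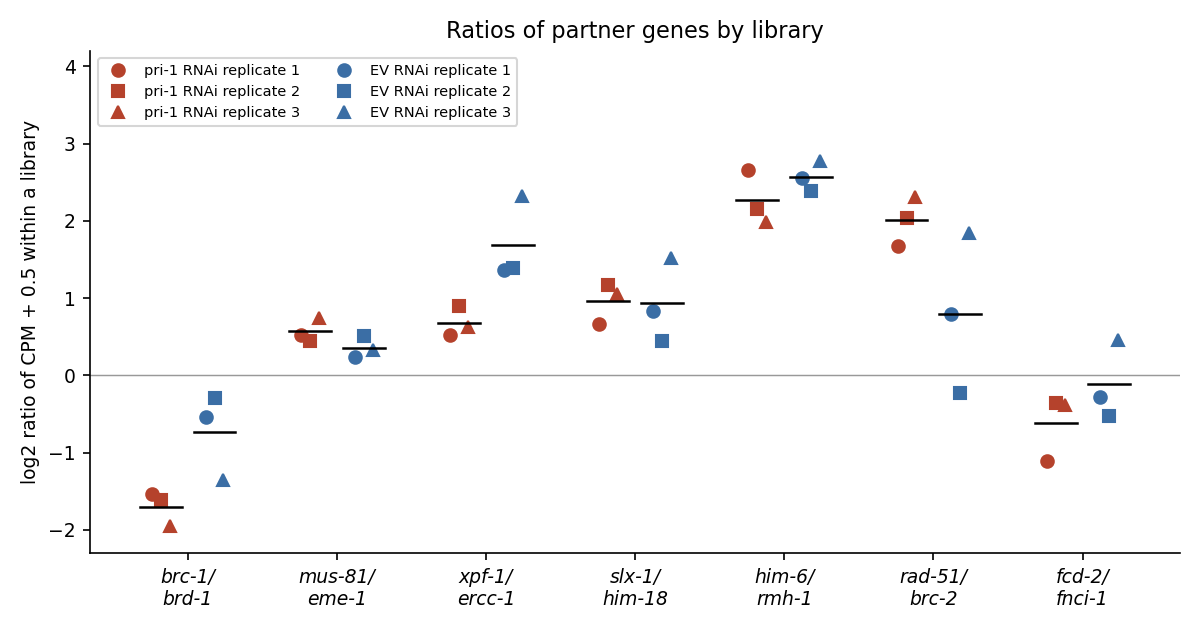
Log2 ratio of CPM + 0.5 of each gene to that of a partner within each library, with *pri-1* RNAi (red) left of EV (blue), symbols for the replicate number and bars for the mean of 3 libraries. The groups part for *brc-1* to *brd-1* and for *xpf-1* to *ercc-1*, both lower in *pri-1* RNAi.

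None of the 8 genes of direct partner proteins (*eme-1*, *ercc-1*, *him-18*, *brc-2*, *fnci-1*, *fan-1*, *rmh-1* and *top-3*) passed the test in either direction, and their median log2 fold change was 0.20. *ercc-1*, the XPF-1 partner, had 14.2, 7.70 and 10.55 CPM in *pri-1* RNAi embryos, against 8.195, 10.2 and 2.79 CPM in EV embryos (log2 difference 0.71; limma, adjusted p = 0.346). *fnci-1*, which pairs with FCD-2, had 38.55, 15.5 and 18.6 CPM in *pri-1* RNAi embryos, against 16.7, 44.85 and 5.03 CPM in EV embryos (0.49, adjusted p = 0.669). Both genes overlapped widely between the groups. The remaining partners had log2 fold changes between -0.35 (*top-3*) and 0.25 (*rmh-1*).

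In the list of 12 tested recombination genes, which shares *brc-2* with the partners, 3 were higher and none lower, beside 17.3% of all tested genes that were higher. *smc-6*, a subunit of the SMC-5/6 complex that holds sister chromatids for repair, had 268, 105 and 154 CPM in *pri-1* RNAi embryos, against 39.6, 46.0 and 23.1 CPM in EV embryos (log2 fold change 2.21, standard error 0.40, adjusted p = 0.00666 from limma). All *pri-1* RNAi libraries were above all EV libraries, and this difference was larger than that of any of the 10. *rpa-2*, a subunit of the complex that covers single-stranded DNA, rose with 329, 295 and 345 CPM against 170, 184 and 216 CPM in EV embryos (0.77, adjusted p = 0.0228), and *rad-54.B*, a motor protein of homologous recombination, rose with 20.15, 16.7 and 18.4 CPM against 10.65, 9.30 and 7.35 CPM in EV embryos (0.99, adjusted p = 0.0448). *smc-5*, the other SMC subunit, had 259, 80.02 and 117 CPM in *pri-1* RNAi embryos, against 31.8, 82.6 and 9.09 CPM in EV embryos (2.19, standard error 0.77, adjusted p = 0.0708) and did not pass. The median of the list was 0.28.

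In the list of 12 genes of fork helicases, Fanconi proteins and related factors, of which 4 are also partners, none passed the test in either direction. Their median log2 fold change was 0.44, with 10 genes above 0, beside 7350 of all 14801 tested genes above 0. The smallest p was that of *fncm-1*, a fork remodelling helicase, with 15.45, 8.23 and 12.5 CPM in *pri-1* RNAi embryos, against 3.45, 6.99 and 1.04 CPM in EV embryos (log2 fold change 1.77, standard error 0.60, adjusted p = 0.0624 from limma). *smrc-1* (0.77), *mus-101* (0.66) and *wrn-1* (0.82) had adjusted p-values of 0.174, 0.280 and 0.369. A further list held 10 genes of other nucleases and of proteins that work with them, of which 3 are also partners. None of these 10 passed either, although all 10 had log2 fold changes above 0 (median 0.47). *dna-2*, a nuclease and helicase that processes flaps and broken ends, had 48.0, 27.9 and 34.0 CPM in *pri-1* RNAi embryos, against 22.1, 20.7 and 11.75 CPM in EV embryos (1.01, adjusted p = 0.0698). The groups did not overlap for *dna-2*. *mre-11* (1.56), *rad-50* (1.52) and *crn-1* (0.51) had adjusted p-values of 0.103, 0.260 and 0.275.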

How the data were processed

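RNA-seq of 3 *pri-1* RNAi and 3 EV libraries of N2 embryos was analysed. The authors trimmed reads with Trimmomatic 0.36, quantified them with Salmon 1.4.0 on the Ensembl transcriptome of WBcel235 (library type detected automatically), summed them into genes with tximport and deposited CPM without an expression filter (166 of 19933 genes were at 0 in all libraries). Here, limma 3.58.1 (R 4.3.3; eBayes with a trend) was run on log2(CPM + 0.5) for the 14801 genes that reached 0.5 CPM in 3 or more libraries; p-values were adjusted by Benjamini-Hochberg and called under 0.05. Fold changes are on that scale, which understates changes of low genes. Whole reads were recovered from the step of each column, the CPM of 1 read: 93.6% to 95.0% of values up to 20 reads, and 88.8% to 91.5% of all above 0, came out whole within 0.02 reads. In EV and *pri-1* RNAi replicates 3 the lowest value fell short of 1 read. On these reads edgeR 4.0.16 called 3599 genes higher and 2760 lower, and DESeq2 1.42.0 was also run. A floor of 3 reads was 0.0185 to 0.0244 CPM and covers counting error only. Log2 ratios were compared with exact permutation tests. Coordinates and lengths are from Ensembl release 115. On simulated counts, limma and edgeR each called 42 of 67 genes changed 2-fold and all genes changed 4-fold or 8-fold. False calls numbered 23 with limma and 10 with edgeR. The simulation held no differences that run through a whole library, so it does not show how the tests do on these libraries.

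The 10 genes, lists and tests were chosen with earlier results of these data known. Named are the 10 genes, all partners and primase genes, up to 4 genes of each list with the smallest p, neighbouring genes and nearest profiles; *rad-54* of one list is not a name in the table and was not analysed here. Alternatives were pseudocounts of 0.1 and 1, no filter, a mean of at least 5 CPM, 3 scalings, other variance models, replicate blocks, each library left out, both count tests and a threshold of 0.01. edgeR without TMM factors and leaving out 2 libraries together were added after the data were seen. Tables and figures were made with Python 3.11.15, pandas 2.3.3 and matplotlib 3.10.9.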

Additional observations from a re-analysis of the deposited data

How the results depend on the processing

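Of the calls on the 10 genes, that of *brd-1* was kept under every other scaling, pseudocount and count test and lost only with the title numbers as a block, at a threshold of 0.01 and with libraries left out. Higher genes numbered 1059 with a mean of at least 5 CPM, 4159 with the library numbers as a block, 4255 with DESeq2, 1515 at a threshold of 0.01, 1340 without both EV replicate 3 and *pri-1* RNAi replicate 1, and 295 to 2862 with 1 library left out, while lower genes numbered 2552 with quantile normalization, 2760 with edgeR, 3414 with DESeq2, 358 at 0.01, 2848 without both libraries and 26 to 2955 with 1 left out (26 and 295 without *pri-1* RNAi replicate 3). Of the 10 genes, 1 was higher with a mean of at least 5 CPM, with robust variances and with edgeR, 0 with the title numbers as a block, at 0.01 and without both libraries, and 0 to 2 with 1 library left out. With median centring, quantile normalization and the library numbers as a block, 3 were higher, namely *brd-1*, *dog-1* and *rad-51*. In the same order, these settings called 3212, 2473 and 4159 of all 14801 tested genes higher. Fold changes changed sign for *him-6* (0.16 with median centring, 0.082 with quantile normalization), *rtel-1* (0.065 with median centring), *fcd-2* (0.20 and 0.18), *slx-1* (-0.0025 with edgeR) and, without both libraries, *mus-81* (-0.094), *slx-1* (-0.51), *brc-1* (-0.60) and the median (-0.56), where *him-6* was at -0.91, *rtel-1* at -1.39 and *fcd-2* at -0.65. With 1 library left out they ran from -0.55 to 0.21 for *him-6*, -0.81 to 0.49 for *rtel-1*, 0.058 to 0.75 for *mus-81*, 0.55 to 1.21 for *dog-1*, -0.50 to -0.12 for *xpf-1*, -0.51 to 0.52 for *fcd-2*, -0.31 to 0.64 for *slx-1*, -0.34 to 0.69 for *brc-1*, -0.32 to 0.67 for the median and, for log2 ratios, from -0.21 to 0.32 for *slx-1* to *him-18*, 0.69 to 1.72 for *rad-51* to *brc-2*, -0.71 to -0.22 for *fcd-2* to *fnci-1*, -0.504 to -0.17 for *him-6* to *rmh-1* and 0.13 to 0.29 for *mus-81* to *eme-1*. The causes were not tested.

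Deviations from the group means correlated at 0.040, -0.32 and 0.46 between libraries with the same title number, for numbers 1, 2 and 3. The largest correlation, 0.52, was between EV replicate 2 and *pri-1* RNAi replicate 1, which share no number. Differences that run through a whole library enter these values, so they cannot show whether libraries were prepared as pairs. With the title numbers as a block, 2110 genes were higher and 1043 lower. The numbers of the library names as a block pair only EV replicates 1 and 3 with *pri-1* RNAi replicates 1 and 2. With them, *him-6* (0.41), *rtel-1* (0.78) and *fcd-2* (0.53) turned above 0 without passing, *dog-1* passed (1.25) and the median was 0.76. That fit compares the groups within these pairs only, which leaves little from which to estimate the spread of a gene. Its passes, the 4159 higher genes included, therefore carry little weight.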

Other observations

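Genes that join ends or bypass damage without a sister template were measured as a further list. Of 8 tested genes, none passed the test in either direction, with a median log2 fold change of 0.75 and 7 above 0, beside 7350 of all 14801 tested genes above 0. The translesion polymerase gene *rev-3* had 5.91, 3.32 and 4.34 CPM in *pri-1* RNAi embryos, against 1.88, 2.59 and 0.594 CPM in EV embryos (log2 difference 1.29; limma, adjusted p = 0.0705), and the ligase gene *lig-4* had 48.02, 23.6 and 42.97 CPM against 21.4, 22.45 and 14.9 CPM in EV embryos (0.90, adjusted p = 0.0945). For both genes the lowest *pri-1* RNAi value exceeded the highest EV value. *cku-80* (1.09) and *rev-1* (0.95) had adjusted p-values of 0.302 and 0.413. Of 19 genes of meiotic recombination and synapsis, 2 were higher and none lower. That is a smaller share than the 17.3% of all tested genes that were higher. Their median log2 fold change was 0.42, with 17 above 0. *syp-1*, a part of the synaptonemal complex, had 35.9, 12.06 and 19.5 CPM in *pri-1* RNAi embryos, against 5.075, 9.37 and 2.23 CPM in EV embryos (1.98, adjusted p = 0.0395 from limma), and *htp-3*, of the chromosome axis, had 15.65, 13.7 and 15.9 CPM against 7.79, 4.997 and 7.31 CPM in EV embryos (1.13, adjusted p = 0.0354). *zhp-1* (1.202) and *htp-1* (0.99) did not pass (adjusted p = 0.0624 and 0.102).

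Among the primase and damage readout genes, *egl-1*, a cell death gene that the worm p53 counterpart can switch on, had 33.9, 23.6 and 39.8 CPM in *pri-1* RNAi embryos, against 10.6, 8.74 and 9.55 CPM in EV embryos (log2 difference 1.67; limma, adjusted p = 0.00689). *ced-13*, another such target, was too low to be tested, with 0.735, 0.506 and 0.343 CPM in *pri-1* RNAi embryos, against 0.0815, 0.173 and 0.0913 CPM in EV embryos. The p53 gene *cep-1* itself had 22.4, 9.71 and 11.9 CPM in *pri-1* RNAi embryos, against 8.815, 10.02 and 3.93 CPM in EV embryos and did not pass (0.91, adjusted p = 0.2001). The primase partner *pri-2* rose (1.19, adjusted p = 0.0208), and *div-1* (0.54, adjusted p = 0.158) and *pola-1* (-0.11, adjusted p = 0.859) did not pass.

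Profiles over 6 libraries were compared by the mean absolute difference of centred log2(CPM + 0.5). The search covered 10203 genes, not all that were tested. In it, the nearest to *brd-1* was *pmk-3* (0.056), the nearest to *rad-51* was *mtp-18* (0.037) and the nearest to *dog-1* was *erh-2* (0.029). Within the 10, the nearest to *brd-1* was *dog-1* (0.17). A far larger pool tends to give a smaller minimum, so the distances of *pmk-3* and *dog-1* cannot be set against each other. *slx-1* and *brc-1* were nearest to each other among the 10 (0.072). Of the neighbouring protein-coding genes on the chromosome that were tested, only *acs-19*, next to *brc-1*, passed, as lower (165 ± 36.7 CPM in *pri-1* RNAi and 368 ± 54.5 CPM in EV; SD, n = 3 each; adjusted p = 0.00970 from limma).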
